A study of Equus caballus with 6 samples.

Results

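A total of 26 genes of the horse testis were described that were well expressed in every mature stallion and were present at very unequal levels in the 3 immature colts. They were chosen by their measured counts from 26991 Ensembl genes, in a table of 58724 genes in all, so the values that chose them are given as a description. A member had an implied length above 150 bp and below 9 kb, between 10 and 200 CPM (a count scaled to the total count on genes in its library) in each mature library, and at least 30 counts in the highest immature library. The mean mature CPM was at least 2 times the highest immature CPM, and the highest immature CPM was at least 8 times the lowest after 1 was added to each count. Of the Ensembl genes, 20814 had a length within the limits, 7674 of these also met the limits on mature CPM, 1589 met every limit before the last, whatever their ratio between colts, and 26 of these met the last as well. A further gene, of 126 bp, met every limit except that on length.

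The testes came from 6 healthy male Mongolian horses, 3 immature colts aged 11 to 13 months (before sexual maturation, BSM) and 3 mature stallions aged 3 to 4 years (after sexual maturation, ASM). The labels name no treatment or genetic change and separate the groups by maturity alone. Each horse gave 1 poly(A) RNA-Seq library of testis tissue, so each colt is measured once, and which region of the testis went into the libraries is not given in the sources used here. The BSM libraries carry the numbers of their sample titles, whereas ASM1 to ASM3 are names of columns that the labels tie to the stage and not to a given stallion.

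Spermatogenesis takes place in the seminiferous tubules, where spermatogonia give rise to spermatocytes that pass through meiosis, and the haploid spermatids then build the acrosome and the flagellum. Before puberty the tubules hold mainly Sertoli cells and early germ cells, and the later germ cells appear as the animal matures. Tubules of one testis do not all begin at the same time, and colts of similar age can stand at different points of this course. Many transcripts are made almost only in meiotic and haploid germ cells. In bulk tissue fewer cells of a type and less RNA per cell cannot be told apart.

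The identifiers of the 26 genes were not paired with gene symbols in the tables used here, so no known function could be given for a member, and the tissue was not checked against marker genes. Members are named below by their length, which differs for each of them, and 2 are named by identifier. ENSECAG00000000758, of 2121 bp, had the largest number of counts in the colts, and ENSECAG00000022928, of 1618 bp, had the profile closest to the median of the members. Members that are singled out by length were picked after their values were seen.

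The libraries held between 14015484 and 19721986 counts on genes, so that 3 counts stood for 0.152 to 0.214 CPM. Among the colts the total was 15638712 counts in BSM1, 15910529 in BSM2 and 14015484 in BSM3, and the part of depth in the members' levels was not tested. The number of genes with a count above 0 was 43178 in BSM1, 45412 in BSM3 and 46391 in BSM2. The colts fell in the same order by this number as by the members. For Ensembl genes alone the number was 18880 in BSM1, 19061 in BSM2 and 19120 in BSM3, so there BSM3 was highest. The part of these numbers in the members' levels was not tested.

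The summed level of the 26 members was 21.2 CPM in BSM1, 120.0 CPM in BSM3 and 231 CPM in BSM2. In the stallions it was 2136 CPM in ASM1, 1992 CPM in ASM2 and 2228 CPM in ASM3. The stallions lay close together, at 2119 ± 119 CPM (SD, n = 3), whereas the colts gave 124 ± 105 CPM (SD, n = 3), a spread nearly as large as the mean. BSM2 exceeded BSM1 by 10.9-fold, and the highest stallion exceeded the lowest by 1.12-fold. The rule asks for unequal colts in each member, so the spread of the colts is in part selected and is a description. All 3 stallions were far above all 3 colts. The rule fixes that the mature mean of each member is at least 2 times its highest colt, but not the size of the gap beyond that.

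ENSECAG00000022928 shows the course of a typical member. It had 8 counts in BSM1, 59 in BSM3 and 95 in BSM2, and 1722, 1302 and 1137 counts in the stallions. In CPM these were 0.512, 4.21 and 5.97 in the colts and 89.0, 66.0 and 66.1 in the stallions. The colt with the least held 0.694% of the mean mature level of 73.7 ± 13.2 CPM (SD, n = 3), and the colt with the most held 8.10%. The 8 counts in BSM1 had an exact Poisson 95% interval of 3.45 to 15.8 counts, and the 95 counts in BSM2 one of 76.9 to 116 counts. These intervals cover counting error only, and their separation follows from the choice of unequal colts.

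ENSECAG00000000758 was the best counted member in the colts. It had 49 counts in BSM1, 278 in BSM3 and 526 in BSM2, against 1912, 1887 and 1756 in the stallions. In CPM these were 3.13, 19.8 and 33.1 in the colts and 98.8, 95.7 and 102 in the stallions. The stallions differed by only 1.07-fold, while BSM2 was 10.6 times BSM1, with an exact 95% interval of 7.86 to 14.4 for counting error. BSM2 already held 33.4% of the mature mean, and BSM1 held 3.17%.

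**Figure D1:**
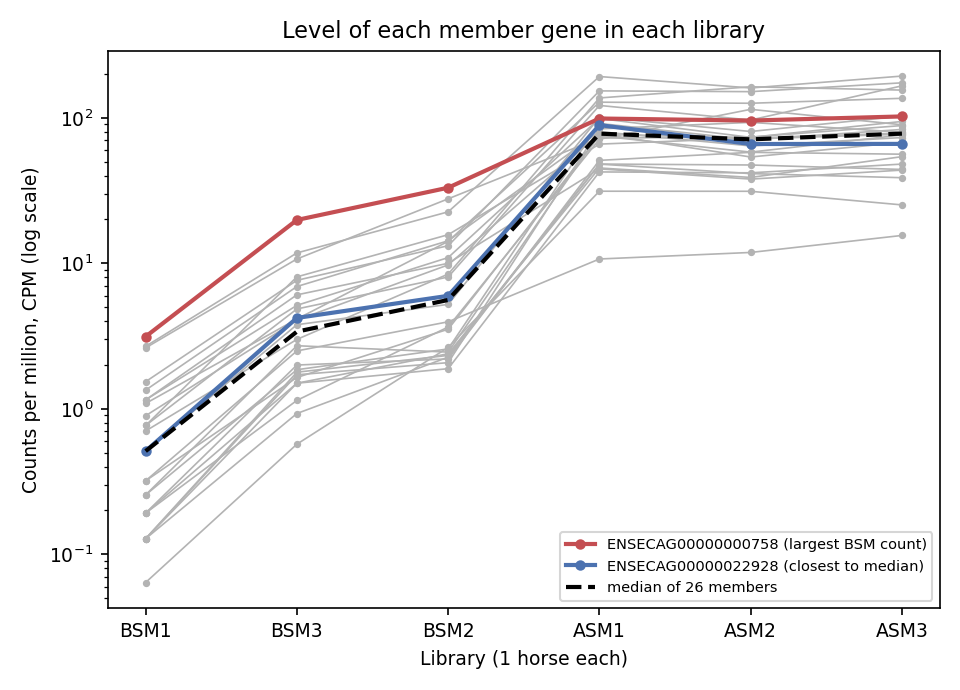
Level of each of the 26 members in CPM (vertical log axis) in the 6 libraries, ordered with the colts as BSM1, BSM3, BSM2 and then the stallions. Each grey line is 1 gene, the red and blue lines are the 2 genes named by identifier and the dashed line is the median, which was 0.512 CPM in BSM1, 3.39 in BSM3, 5.59 in BSM2 and between 71.1 and 77.8 in the stallions.

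The rule names no colt, but its limits on the mature level bear on which colt is high, so the order of the colts is given as a description. BSM1 was the lowest colt for 26 of the 26 members. BSM2 was the highest for 25, and the order BSM2, BSM3, BSM1 was therefore found in 25 of 26 genes, or 96.2%. The exception was the member of 447 bp, with 4 counts in BSM1, 39 in BSM2 and 38 in BSM3, where BSM2 and BSM3 differ by a single count. The same order was found in 30.9% of the 32954 genes that were tested between the stages and in 59.4% of the 1563 Ensembl genes that met the other limits but had a ratio between colts under 8, so part of the gap to all genes comes with the other limits. With TMM scaling in place of column totals the order was still found in 25 of these 26 genes. It was then found in 52.5% of the 1563 genes and in 26.5% of all genes tested. As each colt is a single library, this order is a description of these 3 animals and has no test.

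The exact 95% interval of the ratio of BSM2 to BSM1 lay above 1 in 26 members, and that of BSM3 to BSM1 also lay above 1 in 26. The rule asks for at least 30 counts in the highest colt and an 8-fold gap to the lowest, so the first of these counts follows from the choice of members, the second is drawn from the same low BSM1 counts, and nothing is read from either. For BSM2 against BSM3 the interval lay above 1 in 18 members and held 1 in the other 8. In those 8 members these neighbours in the order were not told apart at this depth. Such intervals were not counted over other genes. The limits also used the highest colt, which was BSM2 in most members, so nothing is read from the 18 members. The intervals cover counting error alone and say nothing of differences between animals.

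The size of the inequality was only loosely fixed by the counts. The ratio of the highest to the lowest colt, with 1 added to each count, had a median of 10.2 and ran from 8.23 to 21.1, and 11 members lay between 8 and 10. A total of 8 members had 1 to 3 counts in BSM1. The lower bound of the interval of BSM2 over BSM1 ran from 3.46 to 11.5 over the members, and it reached 8 in 1 member only. That member, of 987 bp, had 12 counts in BSM1, 113 in BSM3 and 250 in BSM2, and its BSM2 level was 20.5 times its BSM1 level (exact 95% interval 11.5 to 40.2). The member with the largest ratio, of 2201 bp, had 1 count in BSM1, 8 in BSM3 and 42 in BSM2, which gives a ratio of 41.3 in CPM with an interval of 7.02 to 1669.

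Just inside the limit of 8 stood the member of 791 bp, with a ratio of 8.23 from 42 counts in BSM1, 165 in BSM3 and 359 in BSM2. Just outside it stood 2 genes that both had a ratio of 7.86. One, of 2349 bp, had 18, 79 and 151 counts in BSM1, BSM3 and BSM2, and the other, of 552 bp, had 11, 49 and 95. The values of genes near the limit therefore ran on across it.

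BSM3 lay nearer to BSM2 than to BSM1 on the log scale in 26 of 26 members. Its median position was 0.771 of the way from BSM1 to BSM2, and it ran from 0.516 to 1.05. BSM3 was within 2-fold of BSM2 in 16 members and within 2-fold of BSM1 in 0. The members were chosen for a colt far below the highest, which was BSM1 in each, so the distance of BSM3 from BSM1 is in part selected and is a description. The member of 3307 bp stood closest to the middle, with 17 counts in BSM1, 58 in BSM3 and 225 in BSM2, against 2339 to 2481 in the stallions.

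**Figure D2:**
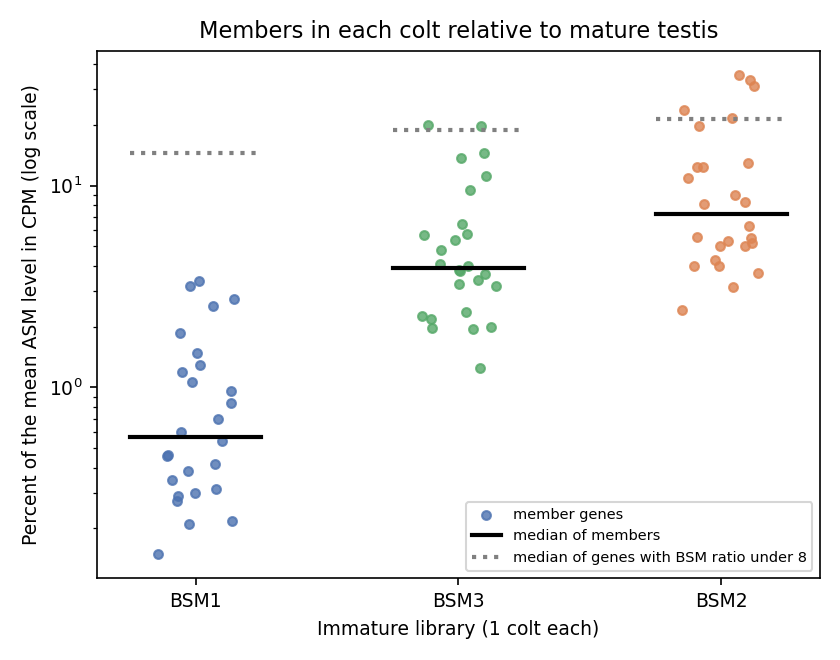
Level of each member in each colt as a percent of its mean mature level in CPM (vertical log axis), with 1 point for each of the 26 genes and a black bar at their median. The medians were 0.570% in BSM1, 3.91% in BSM3 and 7.20% in BSM2, and the dotted bars mark the medians of the 1563 Ensembl genes that met every other limit with a ratio between colts under 8, which were 14.5%, 19.0% and 21.3%.

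Relative to the mature mean the members ran from 0.150% to 3.35% in BSM1, from 1.25% to 20.1% in BSM3 and from 2.43% to 35.5% in BSM2. In BSM1, 17 of the 26 members were under 1% of their mature level. An FPKM, which scales a count to library size and gene length, of more than 1 was reached by 7 members in BSM1, 23 in BSM3, 25 in BSM2 and 26 in each stallion. On this length-corrected scale the median level was 0.424 FPKM in BSM1, 2.64 in BSM3, 5.18 in BSM2 and between 57.5 and 59.4 in the stallions.

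The members differed from each other in how much of the mature level BSM2 had reached, and 3 sets were cut by this percent. In 3 members BSM2 held 25% or more. Beside ENSECAG00000000758 these were the member of 1802 bp, with 41 counts in BSM1, 150 in BSM3, 441 in BSM2 and 1403 to 1520 in the stallions, and the member of 1591 bp, with 5, 35 and 63 counts in the colts and 207 to 267 in the stallions. The latter had the lowest mature level of all members, 12.7 CPM. In these 3 genes the mature mean was between 2.82 and 3.21 times the highest colt.

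In 7 members BSM2 held between 10.9% and 23.8% of the mature mean. They had between 12 and 42 counts in BSM1, between 57 and 165 in BSM3 and between 155 and 359 in BSM2. This group held the member of 791 bp, whose mature mean of 182 CPM was the highest of all. Its counts in the stallions were 3715, 3160 and 3326. It also held the members of 834, 987, 1096, 1145, 3090 and 3307 bp.

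In the other 16 members BSM2 held less than 10%, with a median of 5.12%, BSM3 had a median of 3.33% and BSM1 a median of 0.367%. Their mature mean was between 11.1 and 41.2 times the highest colt. The largest gap was that of the member of 2524 bp, with 2 counts in BSM1, 24 in BSM3 and 33 in BSM2 against 1624, 1833 and 1367 in the stallions, so that BSM2 held 2.43%. The ratio between the colts did not separate the 3 sets, with medians of 10.4, 10.2 and 9.96 in the order of falling BSM2 level. The sets were cut after the values were seen.

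Within a colt the members kept much of their order. Over the 26 genes Spearman's rho of CPM was 0.935 between BSM2 and BSM1, 0.884 between BSM2 and BSM3 and 0.531 between BSM2 and the mature mean. Between stallions it was 0.875 to 0.960. These are descriptions across genes that share libraries and were chosen within limits on the same values, and genes are not independent replicates.

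The stallions were close to each other for most members. The ratio of the highest to the lowest stallion had a median of 1.23 over the members, with 24 under 1.5 and 0 at 2 or more. It was 1.21 over the 1563 Ensembl genes with a ratio between colts under 8 and 1.46 over all genes tested. The rule does not ask for even stallions, but its limits of 10 and 200 CPM in each stallion bear on this ratio. All genes tested had a median mature level of 3.60 CPM, and the median ratio was 1.27 over the Ensembl genes tested. The members with the largest ratios were that of 189 bp, with 2351, 1903 and 2849 counts in the stallions, and that of 735 bp, with 1378, 2253 and 1539. ASM3 was the highest stallion in 12 members, ASM1 in 10 and ASM2 in 4.

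The lengths of the members ran from 189 to 3307 bp with a median of 1077 bp, against a median of 1437 bp for the 1563 genes. Per length, the highest mature level was that of the member of 189 bp, at a mean of 677 FPKM, from 12 counts in BSM1, 68 in BSM3 and 128 in BSM2. The lowest was 7.98 FPKM in the member of 1591 bp. The authors selected cDNA fragments about as long as the member of 189 bp, so its FPKM is uncertain. Its mean mature level without correction for length was 128 CPM. The median of the mean mature level was 60.2 FPKM for members and 48.4 FPKM for the 1563 genes.

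The 1563 Ensembl genes that met the other limits with a ratio under 8 give the nearest comparison. BSM2 was the highest colt in 66.9% of them and BSM1 was the lowest in 77.7%, and 59.4% had the order BSM2, BSM3, BSM1. With TMM scaling BSM1 was the lowest in 65.8% of them and 52.5% had this order. The median ratio was 1.502 for BSM2 over BSM1 and 1.33 for BSM3 over BSM1, against 10.2 and 5.56 for members. The summed level of the 1563 genes was 20316 CPM in BSM1, 24572 in BSM3 and 27306 in BSM2, so their colts differed by 1.34-fold where those of the members differed by 10.9-fold. The order of the colts was thus shared with genes of smaller inequality, and the members differ in its size, which is what chose them.

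The share of genes with this order was larger where the colts were more unequal. It was 483 of the 995 genes with a ratio under 2, 288 of the 384 genes between 2 and 4, 157 of the 184 genes between 4 and 8 and 25 of the 26 members. BSM1 was the lowest colt in 68.8%, 91.9% and 96.2% of the first 3 classes and in 26 of the 26 members. The median count in BSM1 fell across the classes from 219 to 41.5, 16.5 and 8, while the median mature level stayed between 65.5 and 82.4 CPM. The classes are cut on the same counts, and their trend has no test.

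**Figure D3:**
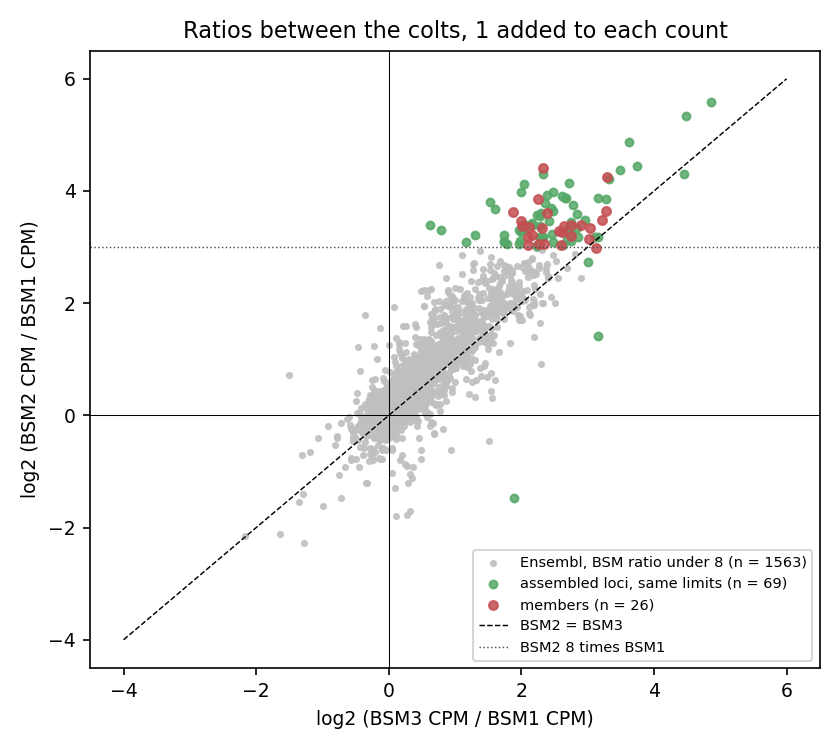
Ratio of BSM2 to BSM1 (vertical) against the ratio of BSM3 to BSM1 (horizontal), both as log2 of CPM with 1 added to each count, for the 26 members (red), the 69 assembled loci within the same limits (green) and the 1563 Ensembl genes with a ratio between colts under 8 (grey). Both axes share BSM1, so the slope of the cloud is no finding. The members lie between 7.86-fold and 21.1-fold on the vertical axis, and 25 of the 26 lie above the dashed line where BSM2 equals BSM3.

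The rule takes only Ensembl identifiers, so the loci that the authors assembled outside the annotation were not used by it. Of 31733 such loci, 536 met the limits on length, CPM and counts whatever their ratio between colts, and 69 of these 536 also had a ratio of at least 8, where 26 of 1589 Ensembl genes did. BSM1 was the lowest colt in 68 of these 69 and BSM2 the highest in 65, and 65, or 94.2%, had the order BSM2, BSM3, BSM1. Their median ratio was 10.5 for BSM2 over BSM1 and 5.23 for BSM3 over BSM1. Their summed level was 52.9 CPM in BSM1, 289 in BSM3, 513 in BSM2 and 3508 ± 374 CPM (SD, n = 3) in the stallions. They differed from the members in length, with a median of 2642 bp, and in mature level per length, with a median of 15.5 FPKM.

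The 69 loci also stood nearer to the mature level in each colt, at a median of 0.994% in BSM1, 6.62% in BSM3 and 13.1% in BSM2. Whether single loci overlap or adjoin a member is not known from the tables. The counts of the 2 sets share libraries, so the order in one is no replicate of the order in the other.

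**Figure D4:**
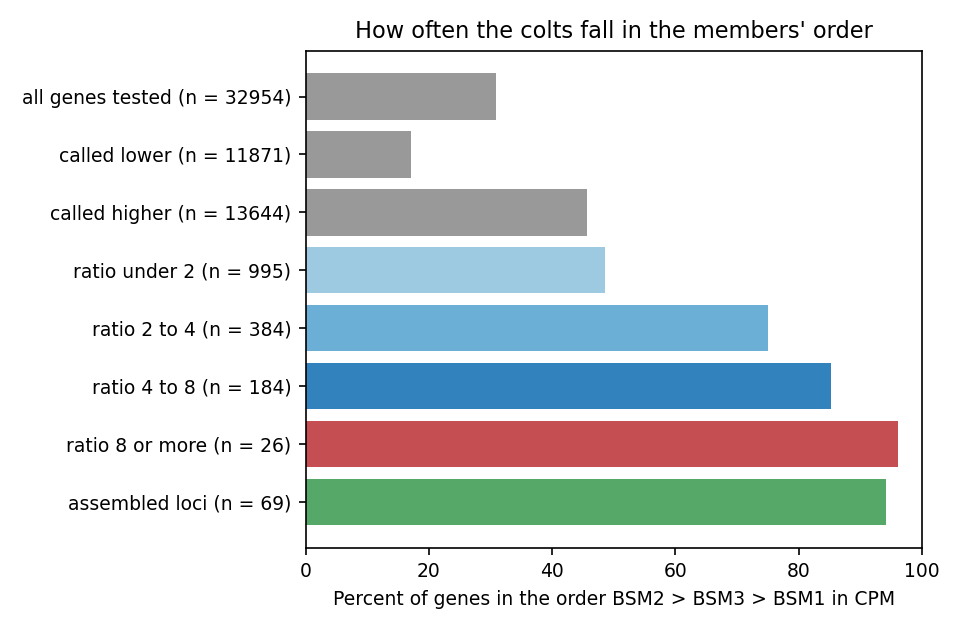
Percent of genes (horizontal axis, from 0) whose CPM in the colts fell in the order BSM2, BSM3, BSM1. Grey bars are all genes tested and those called lower or higher in ASM, blue bars are Ensembl genes within the other limits by their ratio between colts, and the red and green bars are the 26 members at 96.2% and the 69 assembled loci at 94.2%, against 30.9% of all genes tested.

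The libraries as a whole differed in the same direction. Ensembl genes called lower in ASM took 55.6% of the counts in BSM1, 51.7% in BSM3 and 48.7% in BSM2, and between 15.4% and 15.9% in the stallions. Ensembl genes called higher in ASM, members left out, took 18.3% in BSM1, 20.5% in BSM3, 22.7% in BSM2 and 60.0% to 60.6% in the stallions. BSM2 was thus the colt nearest to the stallions by both measures and BSM1 the farthest. The order BSM2, BSM3, BSM1 was found in 45.6% of the 13644 genes called higher and in 17.0% of the 11871 called lower. The part of these differences between libraries in the members' levels was not tested.

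The contrast of ASM with BSM was fitted across all genes with edgeR's quasi-likelihood test, and genes were called at a Benjamini-Hochberg adjusted p below 0.05. It called 26 of the 26 members higher in ASM, beside 41.4% of all genes tested. The stallions lay above all colts in CPM in 26 members, beside 37.8% of all genes tested. The rule used this contrast, so nothing is read from these counts. The log2 fold change had a median of 5.24 over members and ran from 2.89 to 6.51, against a median of 0.058 over all genes tested. The adjusted p-values from edgeR ran from 5.68e-05 to 0.00398.

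ENSECAG00000000758 had the smallest fold change, a log2 value of 2.89 (SE 0.65, adjusted p = 0.00398 in the edgeR fit). ENSECAG00000022928 had a log2 fold change of 4.85 (SE 0.64, adjusted p = 0.000306 in the edgeR fit). The errors of the 2 genes were nearly equal although their counts in the colts were not.

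The members' fold changes and their errors depended on which colts were in the fit. Without BSM1 the median log2 fold change was 4.55 and the median SE fell from 0.632 to 0.306. Without BSM2 the median log2 fold change was 5.98, and without BSM3 it was 4.96 with a median SE of 0.872. Leaving out a stallion gave medians between 5.31 and 5.40. All 26 members were called higher in each of these 6 fits, beside 40.4%, 42.4% and 39.4% of all genes tested without BSM1, BSM2 and BSM3 and 37.7%, 37.9% and 37.8% without ASM1, ASM2 and ASM3. The largest adjusted p-value of a member was 0.0315, without BSM3. With the library number as a replicate block 26 members were called, beside 40.1% of all genes tested, and with at least 10 counts in every library 12 members were tested and 12 called, beside 35.1%. The rule used this contrast too, so nothing is read from these counts. It also asks for unequal colts, and BSM1 was the lowest colt in all 26 members. The shifts in fold change and SE without a colt therefore follow from the choice of members, and nothing is read from them.

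**Figure D5:**
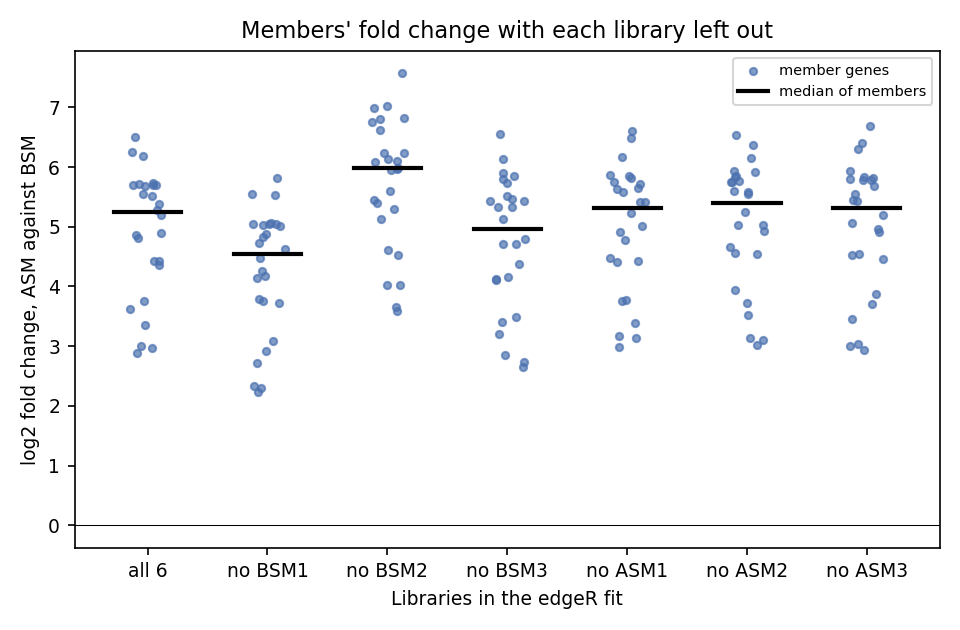
Log2 fold change of ASM against BSM from edgeR (vertical axis) for each of the 26 members with all 6 libraries and with each library left out in turn, with a black bar at the median. The median was 5.24 with all libraries, 4.55 without BSM1, 5.98 without BSM2 and between 4.96 and 5.40 without any of the others.

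The list itself rests on BSM1. When the limits were applied without BSM1, 0 Ensembl genes met them, since no gene within the other limits differed by 8-fold between BSM2 and BSM3. Without BSM2, 3 genes met them, of which 2 were members. Without BSM3, 25 genes met them, and each was a member. Without ASM1, ASM2 or ASM3, 27, 26 and 27 genes met them, the 26 members included each time. These 6 repeats were added after the data were seen.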

How the data were processed

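The deposited counts are raw whole numbers per gene. The authors aligned reads of strand-specific poly(A) libraries with TopHat 2.0.12 to the Ensembl horse genome, assembled further transcripts with Cufflinks and counted reads with HTSeq 0.6.1, with versions from the submitters' processing notes. The genome release, the strand setting of the counting and the treatment of overlapping genes are not given in the sources used here, so overlapping or near-identical genes are uncertain. The authors computed the deposited FPKM from count and gene length. Count, FPKM and column total gave a whole-number length, within 0.01 bp, for 100.0% of the values above 0, and this length was used here. The total counts per library were 14015484 to 19721986.

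The rule and CPM used column totals. Stages were compared with edgeR 4.0.16 in R 4.3.3 (filterByExpr, TMM, quasi-likelihood F test, stage as the only term), fitted on 32954 genes and tested on simulated data. The SE is the log2 fold change divided by the square root of F. Alternatives were DESeq2 1.42.0, limma 3.58.1 on log2(FPKM + 1), other scalings and filters, a block, left-out libraries and other limits for the rule. Intervals are exact 95% intervals (Poisson, or Clopper-Pearson for a ratio). The reference table of another horse assembly lists 39335 genes, 0 with an Ensembl identifier, so symbols and marker lists were not used. The genes named by identifier are the member with the most BSM counts and the member closest to the median log2 profile. The members and lists were chosen with earlier results of these data known. Libraries of a stage are separate horses, and no pair was a near-duplicate (chi-square per degree of freedom at least 11.3).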

Additional observations from a re-analysis of the deposited data

How the results depend on the processing

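The levels of the genes that met the rule moved with its limits, and BSM2 was the highest colt in most of them under each alternative that left genes and kept BSM2. With TMM scaling 24 genes met the rule, 21 of them members, BSM2 was highest in 100% of them, and the median percent of the mature mean was 6.06 in BSM2 and 2.68 in BSM3. A ratio of at least 4 gave 210 genes, with BSM2 highest in 87.6% and medians of 1.29% in BSM1 and 4.88% in BSM3. A ratio of at least 16 gave 2 genes, BSM2 highest in 100%, and medians of 15.4% in BSM2 and 6.55% in BSM3. At least 100 counts in the highest colt, or at least 10 in the lowest, each gave 12 genes, BSM2 highest in 100%, and medians of 1.24%, 12.7% and 6.13% in BSM1, BSM2 and BSM3. The changes under other limits follow from their construction. With at least 10 counts in every library 12 of the 26 members were tested and 12 called, beside 35.1% of all genes tested, with 6496 of all genes called higher and 6966 lower. Library size only moved the median log2 fold change of all genes from 0.058 to -0.40 and that of the members from 5.24 to 4.76, with 11962 genes higher and 14620 lower, which is a smaller share higher than with TMM (13644 and 11871). limma called 15412 higher and 17651 lower, and DESeq2 19098 and 12440.

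Leaving out each library in turn, the rule gave 0 to 27 genes, with 0 without BSM1 and 3 without BSM2, with BSM2 highest in 96.2% to 100% and medians of 0.518% to 1.06% in BSM1, 6.74% to 8.12% in BSM2 and 3.73% to 11.2% in BSM3. The members called were 26 to 26, and all genes called were 13752 to 15649 higher and 10938 to 13061 lower. The log2 fold change was 2.23 to 3.59 for ENSECAG00000000758 and 4.18 to 5.45 for ENSECAG00000022928. Library numbers do not pair the horses, as deviations of same-numbered libraries correlated at 0.0198, -0.0622 and -0.0157, and 1 of 6 libraries correlated best with its own number. With the number as a replicate block 26 members were called higher, beside 40.1% of all genes tested, and 13225 genes were higher and 10844 lower. The rule used this contrast, so nothing is read from the members' counts. The BSM1 values are the least precise, as 8 members had 1 to 3 counts there and 0 had so few in any other library.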

Other observations

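Unequal colts were not a property of genes that are higher in mature testis alone. Of 14142 Ensembl genes within the length limits and with at least 30 counts in a colt, 220, or 1.56%, had a highest BSM level at least 8 times the lowest, without any condition on ASM. BSM1 was the highest colt in 93 of them, BSM2 in 88 and BSM3 in 39. Among the 43 of these genes that edgeR's quasi-likelihood test called higher in ASM, which include the 26 members, BSM2 was the highest in 39, BSM1 in 3 and BSM3 in 1. Among the others, BSM1 was the highest in 90, BSM2 in 49 and BSM3 in 38. Of all 220, 51 were called lower in ASM, 75 were tested and not called, 51 had too few counts for the test, and 99 had a mean under 1 CPM in the stallions. The difference in order between these groups was not tested, as each colt is 1 library.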
